A study of Mus musculus with 29 samples.

Results

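The Sprouty, Spred and Dusp genes described here are 10 mouse genes that encode feedback inhibitors of the Ras-ERK (MAPK) pathway: Spry1, Spry2, Spry4, Spred1, Spred2, Spred3, Dusp4, Dusp5, Dusp6 and Dusp7. They were chosen by name as known inhibitors of this pathway and found by matching the deposited Entrez identifiers to mouse symbols, and the rule itself uses no measured value. They are 10 of the 18834 genes in the files. RNA was sequenced from sorted megakaryocyte-erythrocyte progenitors (MEPs), the bone marrow progenitors of platelets and red cells, in 29 libraries of 6 genotypes. All 6 groups carried SclCre (ScleCre in some labels), a Cre recombinase under Scl (Tal1) regulatory sequence that is active in blood progenitors. With JAK2 V617F, the activating kinase mutation found in myeloproliferative neoplasms, there were 6 Ezh2 -/- libraries, 6 Ezh2 +/- libraries and 4 Ezh2 +/+ libraries. Without V617F there were 4 Ezh2 -/- libraries, 4 Ezh2 +/- libraries and 5 Ezh2 +/+ libraries, which served as the control. Ezh2 encodes the histone H3 lysine methyltransferase of Polycomb repressive complex PRC2. The Ezh2 -/- and Ezh2 +/- libraries with V617F were all from females, and the other groups held 1 or 2 libraries from males. Neither the ages of the mice nor the sort gates are stated in the labels.

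Cytokine and growth factor receptors such as Kit and Epor activate Ras, Raf, MEK and ERK in turn, and active ERK induces transcripts of its own inhibitors. Sprouty proteins act near the receptor and at Ras and Raf, Spred proteins bring the Ras inactivator neurofibromin to the membrane, and the Dusp phosphatases named here remove phosphate from ERK. JAK2 V617F signals through STAT5 and through Ras-ERK in blood progenitors, and ERK activity is known to take part in megakaryocyte maturation, so the RNA of these genes is often read as a trace of ERK output.

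Libraries held 31.6 to 59.4 M counts (median 44.6 M), and 3 counts correspond to 0.0505 to 0.095 CPM, the count scaled to a common library size with TMM factors. Ezh2 RNA followed the labels. It averaged 55.0 ± 3.10 CPM in V617F Ezh2 -/- MEPs, 174 ± 23.2 CPM in V617F Ezh2 +/- MEPs and 289 ± 31.2 CPM in V617F Ezh2 +/+ MEPs, and 73.4 ± 5.89 CPM in Ezh2 -/- MEPs, 192.5 ± 4.28 CPM in Ezh2 +/- MEPs and 302.9 ± 19.998 CPM in controls (SD). The erythroid progenitor genes Gata1, Klf1 and Epor were at 96.4 CPM or more in every library. Markers of other blood cells varied within groups. Control replicate 5 and Ezh2 +/- replicate 5 had the highest summed megakaryocyte, T and NK cell and stem cell markers of their groups, V617F Ezh2 +/+ replicate 1 had the highest megakaryocyte, granulocyte and stem cell sums of its group, and V617F Ezh2 +/- replicate 2 had the lowest megakaryocyte sum with V617F. Tests came from a single edgeR quasi-likelihood fit of all 29 libraries with genotype group and labelled sex. A gene is called higher or lower at a Benjamini-Hochberg adjusted p under 0.05 over the 13928 genes tested, and a positive log2 fold change means higher in the group named first. The comparisons share libraries with each other (the control group enters several), so they are not independent. The labels call the samples replicates and give their sex, but do not say whether each came from a separate animal. Groups that hold both sexes cannot come from the same animal throughout. A p-value here reflects the spread between samples, which may be technical among samples of the same sex.

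All 10 genes passed the filter on low counts, and none shared identical counts with another gene. Per kilobase of the deposited gene length, Spred1 had the highest mean level over the 29 libraries at 12.6 CPM per kb, followed by Spred2 at 9.65 and Dusp6 at 9.27 CPM per kb. Spry2 (6.21), Dusp7 (4.21), Spry1 (4.13) and Dusp5 (3.77 CPM per kb) came next. Spry4 was at 1.13 CPM per kb, and Spred3 and Dusp4 were lowest at 0.477 and 0.475 CPM per kb. The 2 genes with the highest levels varied least. The ratio of the highest to the lowest library in CPM was 1.36 for Spred1, 1.43 for Spred2 and 1.52 for Dusp7, and it was 4.68 for Spry1, 5.33 for Spry4, 8.83 for Dusp5, 10.03 for Spred3 and 12.8 for Dusp4, whose lowest library held 7 counts. The group means of log2 CPM spanned 1.84 for Spry4, 1.62 for Spred3 and 1.58 for Spry1, against a median span of 0.42 over all tested genes. Those of Spred1, Spred2, Dusp6 and Dusp7 spanned 0.24, 0.18, 0.39 and 0.35, each below that median. The plot of the genes by genotype shows these values by library.

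**Figure D1:**
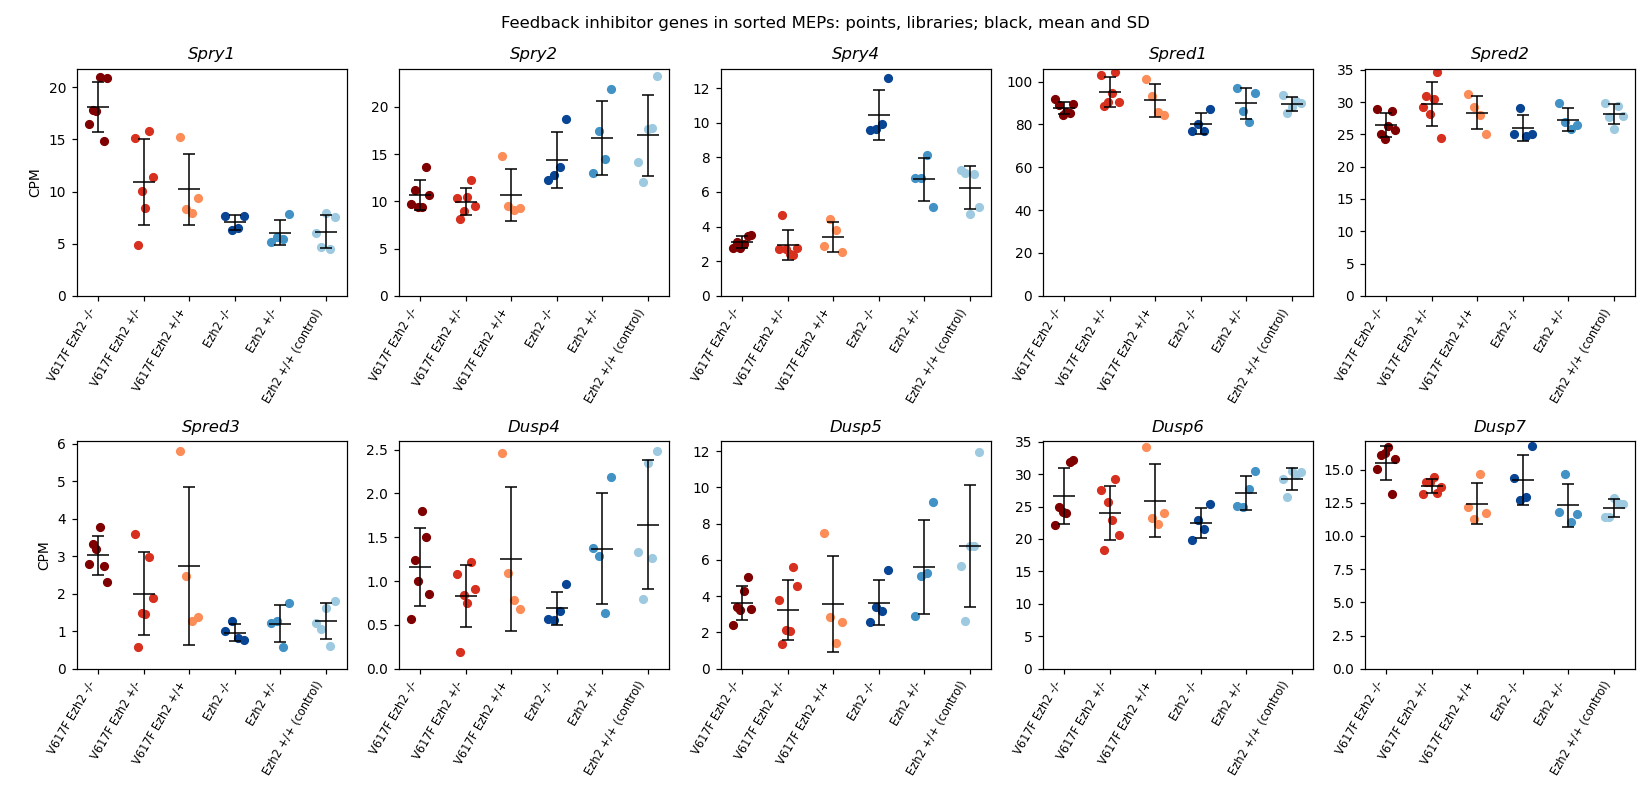
CPM (linear axes from 0) of the 10 feedback inhibitor genes in each library, by genotype group; coloured points are libraries, and black bars are the mean and SD. Spry4 lay between 2.37 and 4.65 CPM in all 16 libraries with V617F and was highest in Ezh2 -/- MEPs without V617F (9.60 to 12.6 CPM), and Spry1 was highest in V617F Ezh2 -/- MEPs (14.8 to 20.97 CPM).

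With V617F, Spry4 and Spry2 were lower in each of the 3 pairs of groups that shared an Ezh2 genotype, and Spry1 was higher in 2 of the 3. In Ezh2 -/- MEPs, 4 of the 10 genes were called with V617F against none, where 41.6% of all tested genes were called (19.1% higher, 22.5% lower): Spry1 and Spred3 were higher and Spry2 and Spry4 were lower. In Ezh2 +/- MEPs, Spry2 and Spry4 were lower, 2 of 10 against 9.87% of all genes (3.35% higher, 6.51% lower). In Ezh2 +/+ MEPs, Spry1 was higher and Spry2 and Spry4 were lower, 3 of 10 against 23.6% (9.73% higher, 13.9% lower). The median log2 fold change of the 10 genes was 0.13, -0.06 and -0.09 in Ezh2 -/-, Ezh2 +/- and Ezh2 +/+ MEPs, against -0.029, 0.0023 and 0.0094 over all tested genes. In Ezh2 -/- and Ezh2 +/+ MEPs the share called was near the background, and the 2 genes in Ezh2 +/- MEPs are too few to set apart from it. These counts are no result about the list.

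Without V617F, loss of Ezh2 came with a higher Spry4 and lower Dusp4 and Dusp6, 3 of 10 genes called in Ezh2 -/- against control MEPs, where 23.7% of all genes were called (11.5% higher, 12.2% lower). The median log2 fold change was -0.20 over the 10 genes and -0.01 over all tested genes. With V617F, Spry1 and Dusp7 were higher in Ezh2 -/- than in Ezh2 +/+ MEPs, 2 of 10 against 26.6% (13% higher, 13.6% lower; 18.1% did not overlap, and none of the 10), with a median of -0.06 over the 10 genes and -0.0034 over all. None of the 10 genes was called in Ezh2 +/- against Ezh2 +/+ MEPs, either without V617F (background 0.0144%) or with it (background 0.00718%), and none separated the groups (0.883% and 0.696% of all genes did). None of the 10 reached an unadjusted p under 0.05 in these 2 comparisons, in which 384 and 881 of all tested genes did and in which DESeq2 also called 0 of the 10. The test of whether the V617F difference itself depended on Ezh2 loss called 1 of the 10 genes, Spry4, where 19.1% of all genes were called (8.47% higher, 10.6% lower). In the Ezh2 -/- comparisons and in this test, the share called was near the background and is no result about the list. The same test for Ezh2 +/- called none of the 10 genes and none of the 13928 tested (937 of them had an unadjusted p under 0.05). The 95% intervals of the Ezh2 +/- differences reached 1.07 without V617F and 1.54 with it in absolute log2 terms for the most variable gene, so changes of that size are not excluded at this spread.

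**Figure D2:**
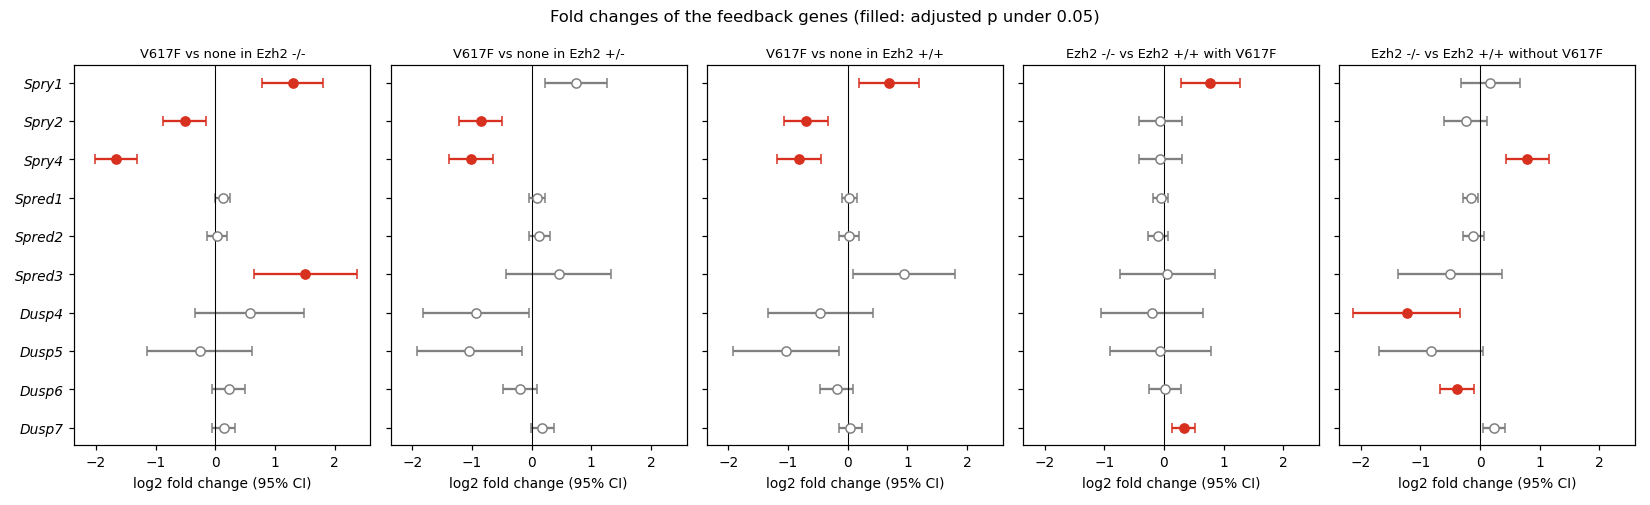
Log2 fold change (points) with 95% confidence interval (bars) of the 10 genes in 5 comparisons; the first group of each panel title is the numerator, and filled red points had an adjusted p under 0.05. Spry4 was lower with V617F in all 3 Ezh2 genotypes, with log2 fold changes of -1.67, -1.02 and -0.82, and the intervals of Spred1 and Spred2 lay between -0.28 and 0.30 in these panels.

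Spry4, a Sprouty gene known as an FGF-induced inhibitor in the mouse embryo, had the largest span of group means. It measured 2.74 CPM at the lowest, 3.06 CPM at the median and 3.50 CPM at the highest in the 6 V617F Ezh2 -/- libraries, and 9.60, 9.64, 9.94 and 12.6 CPM in the 4 Ezh2 -/- libraries. Every V617F library lay below every library without it. The fold was 0.315 (log2 fold change -1.67 ± 0.17 SE, edgeR adjusted p = 1.0e-06). In V617F Ezh2 +/- MEPs it measured 2.37, 2.72 and 4.65 CPM (lowest, median, highest of 6), against 6.82, 6.83, 8.15 and 5.11 CPM in Ezh2 +/- MEPs. The groups again did not overlap (-1.02 ± 0.18, adjusted p = 0.000508). In V617F Ezh2 +/+ MEPs it measured 2.90, 4.43, 3.81 and 2.51 CPM, against 7.28, 7.08, 4.71, 7.05 and 5.12 CPM in controls, again without overlap (-0.82 ± 0.18, adjusted p = 0.00206). The share of all genes whose groups did not overlap was 37.8%, 8.13% and 15.3% in these 3 comparisons. Over all alternatives, adjusted p ranged from 7.74e-20 to 0.179 in Ezh2 -/- MEPs, 1.63e-06 to 0.764 in Ezh2 +/- MEPs and 7.42e-05 to 0.867 in Ezh2 +/+ MEPs, and Spry4 was lower with V617F in each of them.

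The Ezh2 comparison of Spry4 differed with V617F. Without it, all 4 Ezh2 -/- libraries lay above all 5 controls, at 10.4 ± 1.45 CPM (SD, n = 4) against 6.25 ± 1.23 CPM (SD, n = 5), a fold of 1.73 (0.79 ± 0.17, adjusted p = 0.00152); 22.7% of all genes separated the groups in this way. With V617F, Spry4 averaged 3.09 ± 0.335 CPM in Ezh2 -/- MEPs (n = 6) and 3.41 ± 0.868 CPM in Ezh2 +/+ MEPs (n = 4), with overlapping libraries and a log2 fold change of -0.06 (95% interval -0.42 to 0.30). The interaction term was -0.85 ± 0.24 (adjusted p = 0.0247), so the V617F difference was larger in Ezh2 -/- than in Ezh2 +/+ MEPs. That call ended without control replicate 1 (adjusted p = 0.0517), Ezh2 -/- replicate 3 (0.0606) or V617F Ezh2 +/+ replicate 2 (-0.65, 0.0617), within a range of 0.00686 to 0.171 over its 29 alternatives. The Ezh2 -/- difference without V617F kept its call under all 19 alternatives run (log2 fold change 0.59 to 0.90, adjusted p 3.0e-05 to 0.0330). The promoter of Spry4 is not printed here.

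Spry1, which encodes a Sprouty protein that restrains Ras-ERK and calcium signalling, moved the other way with V617F. Its 6 V617F Ezh2 -/- libraries measured 14.8 CPM at the lowest, 17.8 CPM at the median and 20.97 CPM at the highest, against 7.61, 6.33, 6.50 and 7.69 CPM in the 4 Ezh2 -/- libraries. Every V617F library was above every library without it, and the fold was 2.45 (1.29 ± 0.25, adjusted p = 0.00062). In V617F Ezh2 +/+ MEPs it measured 15.2, 8.34, 7.92 and 9.38 CPM, against 5.999, 4.72, 7.90, 4.48 and 7.59 CPM in controls. These groups barely separated, at 7.92 CPM for the lowest V617F library and 7.90 CPM for the highest control, and the difference was smaller (0.69 ± 0.24, adjusted p = 0.0406). It lost its call without control replicate 1 (adjusted p = 0.0558), 2 (0.0797) or 4 (0.101), or without V617F Ezh2 +/+ replicate 1 (0.47, 0.176), within a range of 0.0225 to 0.493 over its 19 alternatives.

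In V617F Ezh2 +/- MEPs, Spry1 spread from 4.90 CPM through a median of 10.7 CPM to 15.8 CPM, against 5.20, 5.66, 5.47 and 7.86 CPM in Ezh2 +/- MEPs, and the difference did not pass (0.74 ± 0.25, adjusted p = 0.0646). V617F Ezh2 +/- replicate 2 was the lowest of all V617F libraries, and without it the difference passed (0.91, adjusted p = 0.00649), as it did without replicate 4 of that group (0.83, 0.0487), within 0.00649 to 0.849 over 20 alternatives. Ezh2 loss came with a higher Spry1 among the V617F groups, at 18.1 ± 2.43 CPM in Ezh2 -/- MEPs (n = 6) and 10.2 ± 3.38 CPM in Ezh2 +/+ MEPs (n = 4), with overlap through V617F Ezh2 +/+ replicate 1 (0.78 ± 0.24, adjusted p = 0.0194). This call ended without V617F Ezh2 +/+ replicate 2 (adjusted p = 0.0809), 3 (0.0546) or 4 (0.0796), over a range of 0.000149 to 0.0809 in 20 alternatives. Without V617F the averages were 7.03 ± 0.718 CPM in Ezh2 -/- and 6.14 ± 1.58 CPM in control MEPs (0.17 ± 0.24; 95% interval -0.33 to 0.67). The interaction for Spry1 was 0.60 ± 0.34 (95% interval -0.09 to 1.30) and was not called.

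Spry2, which encodes a Sprouty protein that binds the adaptor Grb2, was lower with V617F in each Ezh2 genotype. It measured 9.42, 10.2 and 13.6 CPM (lowest, median, highest of 6) in V617F Ezh2 -/- MEPs, against 12.3, 12.8, 13.6 and 18.8 CPM in Ezh2 -/- MEPs. These groups overlapped (-0.52 ± 0.17, adjusted p = 0.0218), and the call ended without Ezh2 -/- replicate 4 (-0.27, 0.127) or V617F Ezh2 -/- replicate 3 (0.0545) or 4 (0.0583), over 0.00223 to 0.956 in 20 alternatives. In V617F Ezh2 +/- MEPs it measured 8.14, 9.93 and 12.3 CPM, against 12.997, 17.4, 14.5 and 21.9 CPM in Ezh2 +/- MEPs, with no overlap (-0.85 ± 0.18, adjusted p = 0.00247). In V617F Ezh2 +/+ MEPs it measured 14.8, 9.53, 9.10 and 9.33 CPM, against 14.1, 12.1, 17.7, 17.8 and 23.3 CPM in controls. Only V617F replicate 1 reached the control range (-0.70 ± 0.18, adjusted p = 0.00624). Over all alternatives, adjusted p ranged from 1.63e-05 to 0.704 in Ezh2 +/- MEPs and 6.06e-05 to 0.474 in Ezh2 +/+ MEPs. Ezh2 genotype made no called difference to Spry2, and the interaction was 0.18 (95% interval -0.33 to 0.69).

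**Figure D3:**
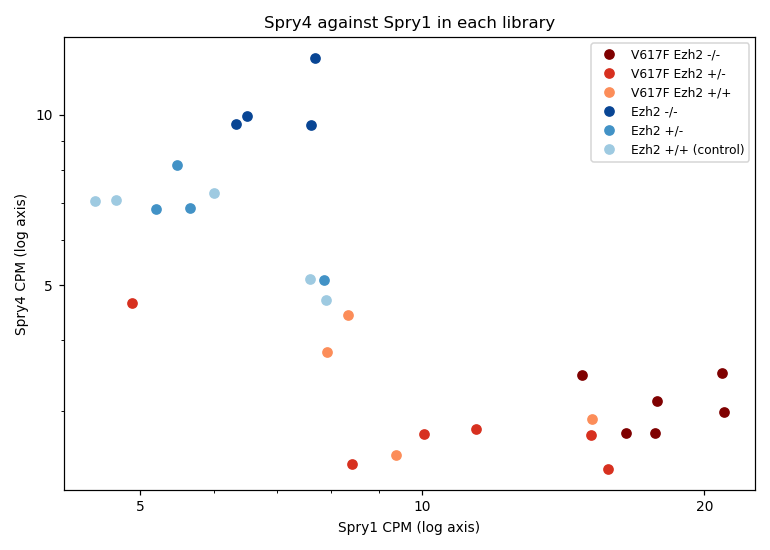
Spry4 against Spry1 in the 29 libraries, both in CPM on log axes, coloured by genotype. All V617F libraries lie at or below 4.65 CPM of Spry4, the 4 Ezh2 -/- libraries without V617F lie at 9.60 CPM or above, and the 6 V617F Ezh2 -/- libraries lie at or above 14.8 CPM of Spry1.

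The 250 bases upstream of the annotated start (RefSeq, GRCm38.p6) are shown for 3 genes that differed with V617F in Ezh2 -/- MEPs, since Spry1 and Spred3 were higher and Spry2 lower in the same libraries. Capitals mark GGAA, the core letters bound by ETS factors that ERK activates, or its complement TTCC. Spry1 (chr3:37639697-37639946, + strand) holds 1 such core, Spred3 (chr7:29168648-29168897, - strand) 1 and Spry2 (chr14:105896820-105897069, - strand) 3.
Spry1: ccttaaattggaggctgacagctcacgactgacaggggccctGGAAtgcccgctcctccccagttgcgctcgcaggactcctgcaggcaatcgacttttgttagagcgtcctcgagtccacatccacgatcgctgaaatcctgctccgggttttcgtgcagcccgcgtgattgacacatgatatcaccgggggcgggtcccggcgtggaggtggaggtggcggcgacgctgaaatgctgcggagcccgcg
Spred3: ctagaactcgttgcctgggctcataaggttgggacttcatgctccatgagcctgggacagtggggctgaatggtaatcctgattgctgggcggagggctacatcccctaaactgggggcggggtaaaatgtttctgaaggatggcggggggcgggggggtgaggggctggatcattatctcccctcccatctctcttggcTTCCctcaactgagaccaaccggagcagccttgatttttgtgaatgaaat
Spry2: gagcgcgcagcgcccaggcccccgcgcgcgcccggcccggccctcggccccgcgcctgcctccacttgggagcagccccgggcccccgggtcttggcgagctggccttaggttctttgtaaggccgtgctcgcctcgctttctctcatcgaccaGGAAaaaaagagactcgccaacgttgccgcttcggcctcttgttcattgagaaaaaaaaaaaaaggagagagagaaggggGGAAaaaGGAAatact
Of 32851 promoter windows of this length, 93.4% hold GGAA on either strand, so its presence is common. The table held 8 of the 10 genes, and Spry4 and Dusp4 are named only. None of the 8 windows holds TTCNNNGAA, the letters bound by STAT factors, on either strand, against 7.02% of all windows. CCGCCC, bound by SP and KLF factors, occurs 1 time in Spry1, 3 times in Spred3 and not in Spry2 (32.7% of all windows hold it), and AGATAA, bound by GATA factors, occurs 1 time in Spred3 (9.99% of all windows). These are matches of letters within this window and not measured sites.

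Spred1 and Spred2, the more abundant Spred genes, were not called in any of the 9 comparisons. Spred1 averaged 87.7 ± 2.98 CPM in V617F Ezh2 -/-, 95.3 ± 6.93 in V617F Ezh2 +/- and 91.2 ± 7.59 CPM in V617F Ezh2 +/+ MEPs, and 80.4 ± 4.91 CPM in Ezh2 -/-, 89.8 ± 7.28 in Ezh2 +/- and 89.6 ± 3.14 CPM in control MEPs (SD). It was close to the threshold in Ezh2 -/- against control MEPs (-0.16 ± 0.06, adjusted p = 0.0688) and passed it there without Ezh2 -/- replicate 4 (-0.21, 0.0305; 0.0305 to 0.550 over 19 alternatives). Its V617F difference in Ezh2 -/- MEPs was 0.13 (95% interval 0.00067 to 0.25, adjusted p = 0.0955), and it too passed without that replicate (0.17, 0.0371; 0.00499 to 0.871 over 20 alternatives). Spred2 averaged 26.5 ± 1.87 CPM in V617F Ezh2 -/-, 29.7 ± 3.39 CPM in V617F Ezh2 +/- and 28.4 ± 2.58 CPM in V617F Ezh2 +/+ MEPs, and 26.003 ± 2.07 CPM in Ezh2 -/-, 27.3 ± 1.79 CPM in Ezh2 +/- and 28.1 ± 1.55 CPM in control MEPs (SD). All 29 libraries lay between 24.3 and 34.7 CPM. Its V617F differences were 0.03, 0.13 and 0.02 in Ezh2 -/-, Ezh2 +/- and Ezh2 +/+ MEPs (95% intervals -0.14 to 0.19, -0.05 to 0.30 and -0.15 to 0.19).

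Spred3, a Spred protein known to lack a working Kit-binding domain, was scarce and variable. It measured 2.30, 3.01 and 3.78 CPM (lowest, median, highest of 6; 73 to 172 counts) in V617F Ezh2 -/- MEPs, against 0.997, 1.28, 0.81 and 0.77 CPM in Ezh2 -/- MEPs (36 to 62 counts). The groups did not overlap, and the fold was 2.85 (1.51 ± 0.42, adjusted p = 0.00786). In V617F Ezh2 +/+ MEPs it measured 5.81, 2.47, 1.28 and 1.39 CPM, against 1.23, 1.07, 1.61, 0.61 and 1.82 CPM in controls. Replicate 1 stood far above the others of its group, and the difference did not pass (0.94 ± 0.41, adjusted p = 0.0988). In V617F Ezh2 +/- MEPs it measured 0.58, 1.67 and 3.60 CPM, against 1.22, 1.27, 0.58 and 1.76 CPM in Ezh2 +/- MEPs, with overlap (0.46, 95% interval -0.42 to 1.34).

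Dusp6, which encodes a cytoplasmic phosphatase specific for ERK, was lower without Ezh2 when V617F was absent. It measured 19.8, 22.95, 21.6 and 25.5 CPM in Ezh2 -/- MEPs, against 29.3, 26.4, 30.6, 29.8 and 30.4 CPM in controls. The groups did not overlap, and the difference was small (-0.39 ± 0.14, adjusted p = 0.0391). Its call ended without control replicate 1 (adjusted p = 0.0717), 3 (0.0662), 4 (0.0525) or 5 (0.0859) or Ezh2 -/- replicate 1 (0.120), 2 (0.0614) or 3 (0.125), within 0.00951 to 0.291 over 19 alternatives. With V617F, Dusp6 averaged 26.6 ± 4.32 CPM in Ezh2 -/-, 24.05 ± 4.17 CPM in Ezh2 +/- and 25.9 ± 5.58 CPM in Ezh2 +/+ MEPs (SD), with no called difference. The interaction of V617F with Ezh2 -/- was 0.41 ± 0.19 (adjusted p = 0.110) and passed without V617F Ezh2 +/+ replicate 1 (0.58, 0.0207; 0.0207 to 0.936 over 29 alternatives), whose Dusp6 was 34.2 CPM against 22.3 to 23.9 CPM in the rest of its group.

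Dusp7, a close relative of Dusp6 that also acts on ERK in the cytoplasm, was higher without Ezh2 when V617F was present. It measured 13.2, 15.9 and 16.7 CPM (lowest, median, highest of 6) in V617F Ezh2 -/- MEPs, against 12.2, 11.2, 14.7 and 11.7 CPM in V617F Ezh2 +/+ MEPs. The groups overlapped (0.33 ± 0.09, adjusted p = 0.0117), and the call held in all 20 alternatives run (0.30 to 0.42, adjusted p 0.00185 to 0.0453). Without V617F it averaged 14.2 ± 1.89 CPM in Ezh2 -/- and 12.1 ± 0.643 CPM in control MEPs (0.23 ± 0.09, adjusted p = 0.0695), and this passed without Ezh2 -/- replicate 2 (0.28, 0.0445; 0.0306 to 0.618 over 19 alternatives). The Ezh2 +/- groups averaged 13.8 ± 0.517 CPM with V617F (n = 6) and 12.3 ± 1.63 CPM without it (n = 4), and neither V617F nor Ezh2 genotype gave a call there. The Ezh2 differences with and without V617F were not shown to differ (interaction 0.10, 95% interval -0.17 to 0.37).

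Dusp4 and Dusp5, inducible nuclear phosphatases, were low and had wide spreads. Dusp4 measured 0.57, 0.56, 0.66 and 0.97 CPM in Ezh2 -/- MEPs (27 to 45 counts), against 1.34, 0.79, 2.35, 1.26 and 2.48 CPM in controls (35 to 150 counts). The groups overlapped (-1.23 ± 0.44, adjusted p = 0.0427), and the call ended without control replicate 1 (0.0761), 3 (0.0828) or 5 (0.111) or Ezh2 -/- replicate 1 (0.119), 2 (0.107) or 3 (0.133), within adjusted p of 0.0131 to 0.819 over 19 alternatives. In the V617F groups Dusp4 spread widely, at 0.57, 1.12 and 1.80 CPM (lowest, median, highest) in Ezh2 -/-, 0.19, 0.87 and 1.22 CPM in Ezh2 +/- and 1.09, 0.78, 0.68 and 2.46 CPM in Ezh2 +/+ MEPs, and no difference was called. Dusp5 was called in no comparison. It averaged 3.61 ± 0.937 CPM in V617F Ezh2 -/- and 3.65 ± 1.25 CPM in Ezh2 -/- MEPs, and 3.25 ± 1.66 CPM in V617F Ezh2 +/- and 5.61 ± 2.61 CPM in Ezh2 +/- MEPs (SD). Its V617F differences were -0.26, -1.04 and -1.03 in Ezh2 -/-, Ezh2 +/- and Ezh2 +/+ MEPs (95% intervals -1.15 to 0.62, -1.91 to -0.17 and -1.92 to -0.14). In V617F Ezh2 +/+ MEPs it measured 7.46, 2.83, 1.42 and 2.55 CPM, against 5.68, 2.61, 6.79, 6.76 and 11.98 CPM in controls. Without V617F Ezh2 +/+ replicate 1, the highest of its group, the difference passed (-1.60, adjusted p = 0.0136; 8.93e-06 to 0.413 over 19 alternatives).

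The number of the 10 genes called in Ezh2 -/- against control MEPs rested on single libraries: it was 1, Spry4, without control replicate 1, 3 or 5 (where 17.4%, 21.5% and 17.5% of all genes were called) or Ezh2 -/- replicate 1 or 3 (18.6% and 14.9%), and 6, of which 5 were lower, without Ezh2 -/- replicate 4 (19.5%). Among the V617F groups, the number called for Ezh2 -/- was 1 without V617F Ezh2 +/+ replicate 2, 3 or 4 (16.8%, 19.1% and 13.9% of all genes). The number called for the interaction with Ezh2 -/- was 0 without control replicate 1, Ezh2 -/- replicate 3 or V617F Ezh2 +/+ replicate 2 (3.83%, 2.11% and 11.8% of all genes), and 2 without V617F Ezh2 +/+ replicate 1 (33%).

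Marker genes of other cells moved with several of these genes. In bulk RNA, fewer cells of a type and less RNA per cell cannot be told apart. All 8 megakaryocyte markers were detected in every library. Their summed level was 620 to 955 CPM (median 771) in V617F Ezh2 -/-, 130 to 1190 CPM (median 715) in V617F Ezh2 +/- and 226 to 1071 CPM (median 496) in V617F Ezh2 +/+ MEPs. It was 65.3 to 99.8 CPM (median 81.6) in Ezh2 -/-, 95.005 to 313 CPM (median 157) in Ezh2 +/- and 80.2 to 368 CPM (median 114) in control MEPs. With V617F, 8 of 8 of these markers were higher in Ezh2 -/-, 5 in Ezh2 +/- and 6 in Ezh2 +/+ MEPs. Of all tested genes, 19.1%, 3.35% and 9.73% were higher there. In Ezh2 -/- against control MEPs, some markers were lower beside Dusp4 and Dusp6, where 12.2% of all tested genes were lower. They were 2 of 8 megakaryocyte, 5 of 9 T and NK cell, 4 of 6 stem cell, 2 of 9 monocyte, macrophage and dendritic, 2 of 5 mast cell and 2 of 8 erythroid markers. The lists with 2 lower markers hold too few genes to set apart from that share. Of 10 granulocyte, 5 B cell and 2 stromal and endothelial markers tested, 0 were lower, and no list held a higher one. The part of the marker genes in the Dusp4 and Dusp6 differences was not tested beyond the fits with marker scores given here.

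Spry1, like several other members, followed the megakaryocyte markers among libraries of one group. With group means subtracted, r with the mean log2 CPM of the 8 markers was 0.898 for Spry1, 0.848 for Dusp5 and 0.783 for Dusp4. It was 0.771 for Spred3, 0.672 for Spry2, 0.600 for Dusp6 and 0.388 for Spred1. For Dusp7, Spred2 and Spry4 it was -0.049, -0.147 and -0.687. V617F Ezh2 +/- replicate 2, with the lowest sum of any V617F library (130 CPM), had 4.90 CPM of Spry1, and replicates 1 and 5 of that group, with sums of 1054 and 1190 CPM, had 15.1 and 15.8 CPM. V617F Ezh2 +/+ replicate 1, at 1071 CPM, had 15.2 CPM of Spry1. With the mean log2 CPM of the 8 markers as a covariate, an alternative chosen after seeing the data, the V617F difference of Spry1 was -0.25 in Ezh2 -/- MEPs (adjusted p = 0.426; 1.67e-06 to 0.426 over 20 alternatives), 0.04 in Ezh2 +/- MEPs (0.849) and -0.11 in Ezh2 +/+ MEPs (0.493), and that of Spred3 was -0.65 in Ezh2 -/- MEPs (0.465; 0.000259 to 0.571 over 20 alternatives). The Ezh2 -/- difference of Spry1 among the V617F groups kept its call in that fit (0.57, adjusted p = 0.000149). Spry4 stayed lower with V617F, at -1.01 (adjusted p = 0.00946), -0.78 (0.00161) and -0.47 (0.0297) in Ezh2 -/-, Ezh2 +/- and Ezh2 +/+ MEPs, and higher in Ezh2 -/- than in control MEPs (0.59, 0.00428), while its interaction was no longer called (-0.54, 0.171). Dusp4 and Dusp6 were no longer called in Ezh2 -/- against control MEPs (-0.46, 0.344, and -0.21, 0.213). In Ezh2 -/- MEPs, the fit with this score called 5.82% of all tested genes for V617F, against 41.6% without it. It still called 3 of the genes described here. In Ezh2 +/- and Ezh2 +/+ MEPs it called more (19.3% against 9.87%, and 44.6% against 23.6%). The megakaryocyte sums with and without V617F did not overlap in Ezh2 -/- MEPs. Genotype and marker content therefore cannot be told apart there, and neither the lost Spry1 call nor the kept Spry4 call separates them.

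**Figure D4:**
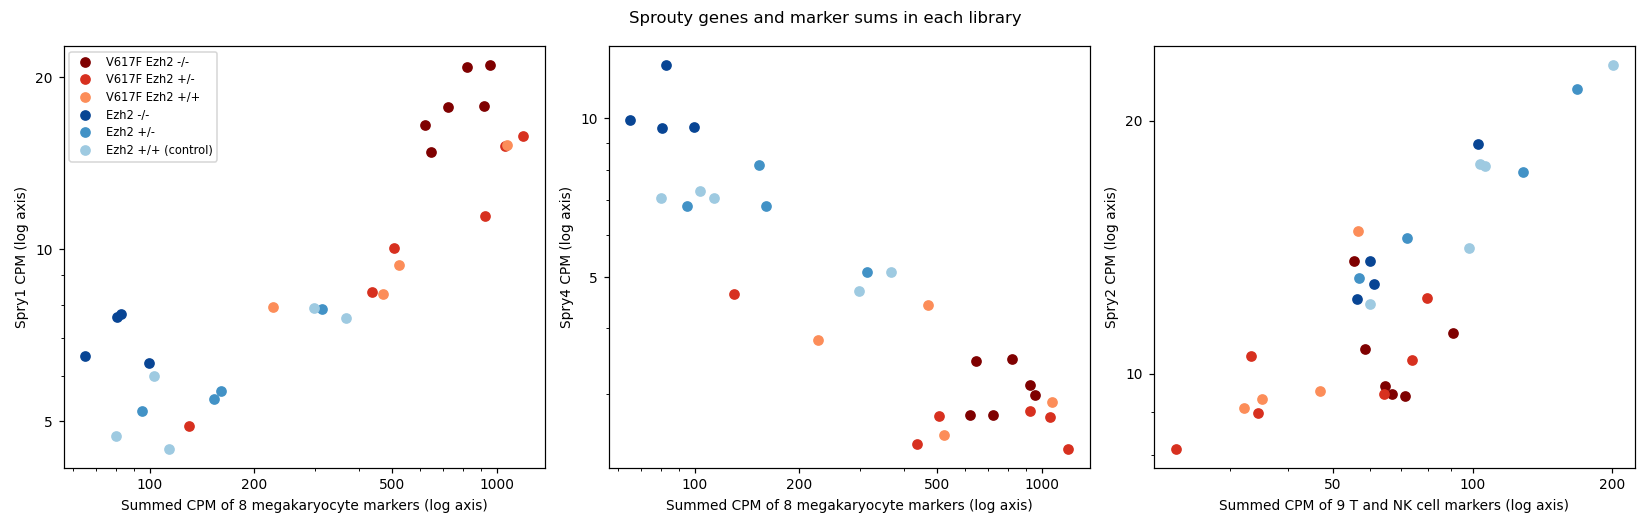
Spry1 and Spry4 (CPM) against the summed CPM of 8 megakaryocyte markers, and Spry2 against that of 9 T and NK cell markers, in the 29 libraries on log axes, coloured by genotype. Spry1 is high where the megakaryocyte sum is high, Spry4 is low there, and the 2 libraries with the most Spry2 (23.3 and 21.9 CPM, control replicate 5 and Ezh2 +/- replicate 5) have the largest T and NK cell sums (201 and 168 CPM). These 2 libraries also had the highest megakaryocyte and stem cell sums of their groups.

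Several marker lists moved in the comparisons in which Spry2 was lower. With the megakaryocyte score as a covariate, the V617F difference of Spry2 was -1.20, -1.14 and -1.07 in Ezh2 -/-, Ezh2 +/- and Ezh2 +/+ MEPs (adjusted p = 0.00223, 1.63e-05 and 6.06e-05). The summed level of 9 T and NK cell markers was 55.6 to 90.8 CPM (median 66.0) in V617F Ezh2 -/-, 22.9 to 79.9 CPM (49.5) in V617F Ezh2 +/- and 32.2 to 56.8 CPM (41.1) in V617F Ezh2 +/+ MEPs, and 56.4 to 103 CPM (60.7) in Ezh2 -/-, 57.0 to 168 CPM (100.3) in Ezh2 +/- and 60.1 to 201 CPM (103.9) in control MEPs. With V617F, 8 of 9 were lower in Ezh2 +/- and in Ezh2 +/+ MEPs, and 3 were lower and 1 higher in Ezh2 -/- MEPs. Of all tested genes, 6.51%, 13.9% and 22.5% were lower with V617F in Ezh2 +/-, Ezh2 +/+ and Ezh2 -/- MEPs. Of 9 monocyte, macrophage and dendritic markers, 5, 9 and 8 were lower with V617F in Ezh2 -/-, Ezh2 +/- and Ezh2 +/+ MEPs. In Ezh2 -/- MEPs, 5 of 5 mast cell and basophil and 5 of 6 stem cell markers were higher with V617F, against 19.1% of all tested genes. Of the T and NK cell markers, Cd5 was at 0 in 1 library, and the other 8 were detected in every library. Granulocyte markers, 10 genes all detected in every library, summed to medians of 869, 796 and 774 CPM in V617F Ezh2 -/-, Ezh2 +/- and Ezh2 +/+ MEPs and 53.6, 126.6 and 70.0 CPM in Ezh2 -/-, Ezh2 +/- and control MEPs. With 3 marker scores (stem cell, T and NK cell, granulocyte) as covariates, none of the 10 genes was called for V617F in any Ezh2 genotype, but that fit called only 0.639%, 0.172% and 7.28% of all genes in Ezh2 -/-, Ezh2 +/- and Ezh2 +/+ MEPs, so the 0 is near the background. Spry2 then stood at 0.05, 0.37 and 0.48 and Spry4 at -0.93, -0.34 and -0.14 in Ezh2 -/-, Ezh2 +/- and Ezh2 +/+ MEPs (adjusted p 0.179 to 0.956). Spry4 in Ezh2 -/- against control MEPs kept its call there. In that comparison Dusp4 (-0.14, adjusted p = 0.819) and Dusp6 (-0.18, 0.291) lost their calls, and Dusp7 gained one (0.31, 0.0342). The fit with 3 scores called 28.8% of all genes in Ezh2 -/- against control MEPs. These 3 scores and the megakaryocyte score differ between the genotypes, so genotype and cell mixture cannot be told apart by such fits. Leaving out control replicate 5 and Ezh2 +/- replicates 2 and 5 together kept the calls of Spry1, Spry2, Spry4 and Spred3 for V617F in Ezh2 -/- and Ezh2 +/+ MEPs named above; in Ezh2 +/- MEPs, where 2 libraries then remain, both from males, Spry2 and Spry4 were no longer called (-0.51, adjusted p = 0.417, and -1.02, 0.0806). In Ezh2 -/- against control MEPs, Dusp4 (-1.06, adjusted p = 0.135) and Dusp6 (-0.36, 0.118) lost their calls without these libraries, Spry4 kept its call (0.77, 0.00703) and Dusp7 gained one (0.28, 0.0306).

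The rest of the pathway moved in both directions. Of 15 ERK-induced transcripts tested, 7 were higher and 4 lower with V617F in Ezh2 -/- MEPs, 3 higher and 0 lower in Ezh2 +/- MEPs, and 4 higher and 3 lower in Ezh2 +/+ MEPs; their median log2 fold changes were 0.51, -0.01 and -0.28, against -0.029, 0.0023 and 0.0094 over all genes, of which 41.6%, 9.87% and 23.6% were called. Egr1, an immediate-early transcription factor, averaged 609 ± 52.2 CPM in V617F Ezh2 -/- and 99.6 ± 20.6 CPM in Ezh2 -/- MEPs (2.52 ± 0.33, adjusted p = 2.08e-05). Its V617F difference was 1.72 in Ezh2 +/- MEPs (adjusted p = 0.00132) and 0.98 in Ezh2 +/+ MEPs (0.0220). Etv4 and Etv5, ETS factors that FGF and ERK signalling induces in embryos, went the other way. Etv4 averaged 0.521 ± 0.166 CPM in V617F Ezh2 -/- and 2.14 ± 0.427 CPM in Ezh2 -/- MEPs (-2.01 ± 0.32, adjusted p = 0.000149), and Etv5 averaged 9.37 ± 0.687 CPM in V617F Ezh2 -/- and 17.5 ± 1.51 CPM in Ezh2 -/- MEPs (-0.86 ± 0.14, adjusted p = 0.000128). As with Spry4, Etv4 was higher in Ezh2 -/- than in control MEPs, where it averaged 0.441 ± 0.139 CPM (2.27 ± 0.34, adjusted p = 2.04e-05), and its interaction was -1.66 (adjusted p = 0.0268).

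Of 18 Ras-ERK core components, 4 were higher and 5 lower with V617F in Ezh2 -/- MEPs, 1 higher and 1 lower in Ezh2 +/- MEPs and 2 higher and 2 lower in Ezh2 +/+ MEPs, against the same 41.6%, 9.87% and 23.6% of all genes; their medians were -0.0038, 0.05 and -0.02. Gab2, an adaptor that links cytokine receptors to SHP2 and Ras, was higher with V617F in all 3 Ezh2 genotypes, by 1.17, 1.35 and 1.25 (adjusted p = 4.02e-06, 2.18e-06 and 9.05e-07). Gab1 was higher without Ezh2, by 0.73 without V617F (adjusted p = 1.34e-05) and 0.37 with it (0.0131). Of 11 receptors tested, 7 were higher and 1 lower with V617F in Ezh2 -/- MEPs, with a median of 0.88, where 41.6% of all genes were called. With V617F in Ezh2 +/- MEPs 1 receptor was higher, and in Ezh2 +/+ MEPs 1 was higher and 1 lower (medians 0.15 and -0.10).

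Of the 6 other MAP kinase phosphatases, Dusp9 was higher without Ezh2, by 1.82 ± 0.24 with V617F (adjusted p = 3.81e-06) and 1.29 ± 0.23 without it (0.00015). Dusp2, an inducible nuclear phosphatase, was lower in Ezh2 -/- than in control MEPs (-0.94, adjusted p = 0.0281) and higher with V617F in Ezh2 -/- MEPs (1.66, 0.0006). Dusp10 was lower with V617F in Ezh2 +/- (-1.08, adjusted p = 0.0042) and Ezh2 +/+ MEPs (-1.23, 0.00076). Among 10 other Ras-ERK inhibitors tested, 3 were higher and 2 lower in Ezh2 -/- than in control MEPs (median 0.02, with 23.7% of all genes called), and with V617F 4 were higher and 2 lower (median 0.15, with 26.6% called). Lrig1, a membrane inhibitor of receptor tyrosine kinases, was higher without Ezh2 both with V617F (0.74, adjusted p = 0.000499) and without it (0.80, 0.000151), and lower with V617F in Ezh2 -/-, Ezh2 +/- and Ezh2 +/+ MEPs (-0.64, -0.49 and -0.59; adjusted p = 0.00127, 0.0312 and 0.00452). None of these 5 lists had a member called in Ezh2 +/- against Ezh2 +/+ MEPs, with or without V617F. Only 0.00718% and 0.0144% of all genes were called there, so this is near the background and no result about the lists.

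The genes whose levels most resembled each member were ranked by Pearson's r of log2 CPM over the 29 libraries among 13882 tested genes, for the 7 members whose mean log2 CPM was 2 or more. The libraries share genotype and marker content, so r describes these libraries only. Spry1 was most like Kdr (0.978), Inpp5a (0.970) and Adarb1 (0.969). Kdr, a VEGF receptor, was 1 of 4 stromal and endothelial markers, whose summed level was 42.8 to 53.1 CPM in V617F Ezh2 -/- MEPs and 10.6 to 54.1 CPM in the other groups. Of these markers Pecam1 was at 9.67 to 45.9 CPM and Kdr at 0.748 to 18.1 CPM. The endothelial Cdh5 did not exceed 0.285 CPM and was at 0 in 5 libraries, and Col1a1 did not exceed 0.262 CPM and was at 0 in 6. With group means subtracted, Spry1 correlated at 0.896 with the mean log2 CPM of the 2 tested markers of this list. Kdr, ranked first for Spry1 in these same libraries, was 1 of these 2, so this r is not separate from that ranking. The r of Spry1 with the megakaryocyte markers was 0.898. Spry2 was most like Crtam (0.901), Cd28 (0.899) and Dusp10 (0.881), of which Crtam and Cd28 are known from T and NK cells. With group means subtracted, r of Spry2 was 0.681 with the T and NK cell markers and 0.672 with the megakaryocyte markers. Dusp5 (0.764) and Dusp4 (0.697) had a higher r with the T and NK cell markers than Spry2. Spry4 was most like Etfdh (0.914), Pck2 (0.898) and Septin4 (0.897). The highest r was lower for Spred1 (Ptbp3, 0.826), Dusp7 (P4ha1, 0.811), Dusp6 (Sertad1, 0.776) and Spred2 (Zbtb22, 0.769).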

How the data were processed

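RNA came from 230000 sorted MEPs per sample, extracted with Trizol-LS, per the labels. The deposited values are counts, whole numbers per Entrez gene that the authors did not normalize. STAR and mouse build mm9 are named in the submitters' processing notes. The aligner's version, the counting program, the annotation and the strand setting were not given in the sources used here. Symbols for 18772 of 18834 genes, chromosomes and promoter sequences came from RefSeq tables of GRCm38.p6, so no coordinate of the counts was used.

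Genes were filtered with filterByExpr (minimum count 10, minimum total 15), scaled by TMM (factors 0.95 to 1.09) and fitted with edgeR 4.0.16 in R 4.3.3 by robust quasi-likelihood, with 22 residual degrees of freedom and a biological coefficient of variation of 18.1%. Tests are two-sided, and a standard error is the absolute log2 fold change over the root of F. The floor of 3 counts covers counting error only. DESeq2 1.42.0 served as an alternative, and the fit was tested on simulated data. No 2 replicates were duplicates (lowest chi-square per degree of freedom 4.73). The members and lists were chosen with earlier results of these data known. All 10 members are named. From each other pathway list, up to 3 genes per direction and comparison with the lowest adjusted p may be named (1 such gene is not reported here), and the 3 most similar genes of each member come from Pearson's r of log2 CPM (prior count 2).

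Alternatives were RLE size factors, no low-count filter, no sex term, females only, the compared groups only, the replicate number as a block, 3 doubted libraries left out, cell marker scores as covariates, DESeq2 and leaving out each replicate. The closing section gives their effect.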

Additional observations from a re-analysis of the deposited data

Results flagged for a closer look

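In 6 of 60 groups of libraries tested over the 10 genes, 1 library stood apart from the rest of its group by Dixon's gap ratio, where chance gives about 1 in 20. In V617F Ezh2 +/+ MEPs, replicate 1 had 34.2 CPM of Dusp6 (the next library had 23.9 CPM) and 14.8 CPM of Spry2 (next 9.53 CPM). In V617F Ezh2 +/- MEPs, replicate 2 had 4.65 CPM of Spry4 (next 2.79 CPM). In Ezh2 -/- MEPs, replicate 2 had 29.1 CPM of Spred2 (next 25.1 CPM), and replicate 4, the group's only male library, had 12.6 CPM of Spry4 (next 9.94 CPM). In Ezh2 +/- MEPs, replicate 5 had 7.86 CPM of Spry1 (next 5.66 CPM). The V617F difference of Spry4 was larger in Ezh2 -/- than in Ezh2 +/+ MEPs by a test of the difference itself, with an interaction of -0.85 on the log2 scale.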

How the results depend on the processing

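Across 24 gene results (those called or with an unadjusted p under 0.05), 404 of 488 alternatives kept direction and status (called or not called), 52 lost the call, 19 gained one and 13 reversed. Some of these results were not called in the main fit, and for them a kept status means staying not called. Leaving out each replicate in turn, the number of the 10 genes called ranged from 1 to 6 for Ezh2 -/- against Ezh2 +/+ without V617F, 1 to 2 with V617F, 3 to 4, 2 to 3 and 2 to 3 for V617F in Ezh2 -/-, Ezh2 +/- and Ezh2 +/+ MEPs, 0 to 2 for the interaction with Ezh2 -/-, and 0 to 0 for both Ezh2 +/- comparisons and the interaction with Ezh2 +/-. With females only it was 5 for Ezh2 -/- without V617F (1 higher, 4 lower), 1 with V617F and 0 for the interaction with Ezh2 -/-, where 11.9%, 16% and 0.903% of all genes were called. With only the compared groups in the fit it was 7 for V617F in Ezh2 -/- and 1 in Ezh2 +/- MEPs (50% and 2.41% of all genes), and without the 3 doubted libraries 0 in Ezh2 +/- MEPs (0.664%), where fewer samples remained. With 3 marker scores (stem cell, T and NK cell, granulocyte) it was 0 for V617F in each Ezh2 genotype and 0 for the interaction with Ezh2 -/-, in a fit that called 0.639%, 0.172%, 7.28% and 3.88% of all genes in Ezh2 -/-, Ezh2 +/-, Ezh2 +/+ and the interaction. Reversed there were Spry2 (0.050, 0.37 and 0.48 in Ezh2 -/-, Ezh2 +/- and Ezh2 +/+ MEPs), Spred3 (-0.63 in Ezh2 -/- and -0.37 in Ezh2 +/+), Dusp4 (0.42 in Ezh2 +/-) and Dusp5 (1.25 in Ezh2 +/- and 1.17 in Ezh2 +/+). With the megakaryocyte score, added after seeing the data, 3 genes were called for V617F in Ezh2 -/- MEPs (5.82% of all genes). In that fit 5 genes were called in Ezh2 +/- and 5 in Ezh2 +/+ MEPs, all lower, and 0 for the interaction with Ezh2 -/- (19.3%, 44.6% and 2.61% of all genes). Spry1 (-0.25 in Ezh2 -/-, -0.11 in Ezh2 +/+), Spred3 (-0.65 and -0.23) and Spred1 (-0.051 in Ezh2 -/-) reversed. Apart from these constructions the cause was not tested.

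With the replicate number as a block, the number called for Ezh2 -/- against Ezh2 +/+ without V617F was 1, since Dusp4 (-1.07, adjusted p = 0.0812) and Dusp6 (-0.33, 0.0677) lost their calls, and no other call of the 10 genes changed. The deviations of same-numbered libraries correlated at -0.44 to 0.79, with 3 of 4 pairs above 0.1 in 3 of 7 comparisons and all 4 in none, so the samples were not treated as paired. Low counts limit Spred3 and Dusp4, with as few as 21 and 7 counts in a library.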
